A study of Homo sapiens with 9 samples.

Results

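The genes described here encode collagens, laminins and other proteins of the extracellular matrix. They form a list of 44 human genes, grouped below by the role of their product. Of the 44, 42 had a probe set assigned to exactly 1 gene on the array, out of 19775 such genes in all. COL17A1 and LAMA3 had none listed and were not analysed here. Each gene was read from its brightest probe set, by the mean of all 9 arrays. Genes whose mean lay under a log2 signal of 6.05 were not tested, which left 32 members among 12616 genes tested, and the other 10 members are described by their levels near the end.

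The extracellular matrix is the protein network that surrounds cells. Basement membranes, the thin sheets on which epithelial cells of the lung and other organs rest, are built from a laminin network and a type IV collagen network that nidogens, perlecan and agrin link together. Fibrillar collagens form the fibres of the tissue beneath and are made mainly by fibroblasts, although carcinoma cells can make them too, and glycoproteins such as fibronectin, SPARC and tenascin connect these fibres to cells or modify how cells attach.

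Transcripts were measured on 9 Affymetrix human arrays of A549 cells, a line from a human lung adenocarcinoma, grown in Dulbecco's medium with 10% fetal bovine serum. In 3 samples an RNA interference oligo targeted MED23 (si-Med23, oligos A, B and C), in 3 an oligo targeted ELK1 (si-Elk1, oligos A, B and C), and 3 samples received a control oligo (si-Ctrl, replicates 1, 2 and 3). MED23 is a subunit of Mediator, the complex through which gene-specific activators reach RNA polymerase II. ELK1 is an ETS family activator that ERK phosphorylates and that can bind MED23. The series is concerned with the dependence of Ras-active lung cancer cells on MED23. The labels describe the oligos of each target as different cell lines, so the spread within a knockdown includes differences between oligos, and they do not say that the control samples were separate cultures, so the p-values measure no more than the spread of these particular samples, part of which may be technical.

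The targeted transcripts were checked first. MED23 had log2 signals of 6.79, 6.19 and 7.06 with si-Med23 oligos A, B and C, 8.87, 9.02 and 8.18 with si-Elk1 oligos A, B and C, and 9.27, 9.05 and 9.08 in si-Ctrl, which left 18.2% of the control signal in si-Med23 (limma adjusted p = 0.00184). ELK1 had 9.98, 10.36 and 9.54 in si-Med23, 7.07, 7.15 and 7.83 in si-Elk1 and 9.36, 9.61 and 9.29 in si-Ctrl, which left 23.8% of the control signal in si-Elk1 (adjusted p = 0.00684). Array medians ran from 64.9 to 88.2 in linear signal. The number of arrays limits the precision of every value below. The 5 epithelial markers KRT8, KRT18, KRT19, EPCAM and CDH1 lay above the filter level on all 9 arrays, with summed signals of 65609 to 93389 in si-Med23, 53938 to 66840 in si-Elk1 and 50031 to 55121 in si-Ctrl. Of 10 fibroblast markers, THY1, TWIST1, ACTA2 and S100A4 lay above that level on every array, DPT and TCF21 lay below it on every array, and none was at 0. PDGFRB lay below it on every si-Med23 and si-Elk1 array, PDGFRA on every si-Med23 and si-Ctrl array and FAP on every si-Med23 array. PRRX1 lay on both sides of it in each group. The summed fibroblast marker signal was 37472 to 48181 in si-Med23, 29756 to 38221 in si-Elk1 and 24334 to 29800 in si-Ctrl, and S100A4 alone gave 91.7% to 94.8% of it on every array. The other 9 fibroblast markers summed to 2266 to 2855 in si-Med23, 2440 to 3034 in si-Elk1 and 1684 to 2080 in si-Ctrl. By limma, ACTA2 and S100A4 among the 4 fibroblast markers tested rose in si-Med23 and THY1 in si-Elk1, while 4 of the 5 epithelial markers rose in si-Med23 (KRT8, KRT18, KRT19 and CDH1) and CDH1 in si-Elk1. Markers of both kinds were thus higher in si-Med23, and their part in the results below was not tested. Of 6 endothelial markers, CDH5, VWF, KDR and TEK lay below the level on all 9 arrays. PECAM1 lay above it on every array, and ROBO4 lay on both sides of it. Of 4 haematopoietic markers measured, PTPRC lay below the level and ITGAM above it on every array. LYZ lay below it on every si-Med23 and si-Elk1 array, and CD3E lay above it on every si-Elk1 and si-Ctrl array.

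On the deposited scale, many of the 44 genes were higher after knockdown of MED23. In si-Med23 against si-Ctrl, 17 of the 32 members tested rose, 0 fell by limma (2 at an unadjusted p under 0.05) and 15 did not pass, while 20.3% of all genes tested rose and 19.5% fell (39.8% called either way). The 17 were COL1A1, COL5A1, COL4A1, COL4A2, COL4A5, COL4A6, COL18A1, LAMA5, LAMB3, AGRN, NID1, NID2, FN1, SPARC, FBN1, FBLN1 and OLFML3. The log2 fold change was positive for 29 of 32, with a median of 0.64 beside 0.09 over all genes tested, and the arrays of si-Med23 and si-Ctrl did not overlap for 26 of 32 (57.3% of all genes). In si-Elk1 against si-Ctrl, COL1A1, COL4A6, FN1 and SPARC rose, OLFML3 fell and 27 did not pass, beside 3.07% of all genes higher and 1.19% lower (4.26% called). The members' median was 0.38 and that of all genes 0.05 there, and 14 of 32 members did not overlap (36.3% of all genes). Set directly against si-Elk1, si-Med23 had 7 members higher, COL1A1, COL5A1, COL4A1, COL4A2, COL18A1, TNC and OLFML3, and COL13A1 lower, beside 9.54% of all genes higher and 12.2% lower (21.7% called). Their median difference was 0.43 beside -0.03 over all genes, and 12 of 32 did not overlap (38% of all genes). Both knockdowns were set against the same 3 si-Ctrl arrays, so their fold changes are not independent of each other. In bulk samples, a change in the number of cells that make a transcript and a change in its amount per cell cannot be told apart.

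**Figure D1:**
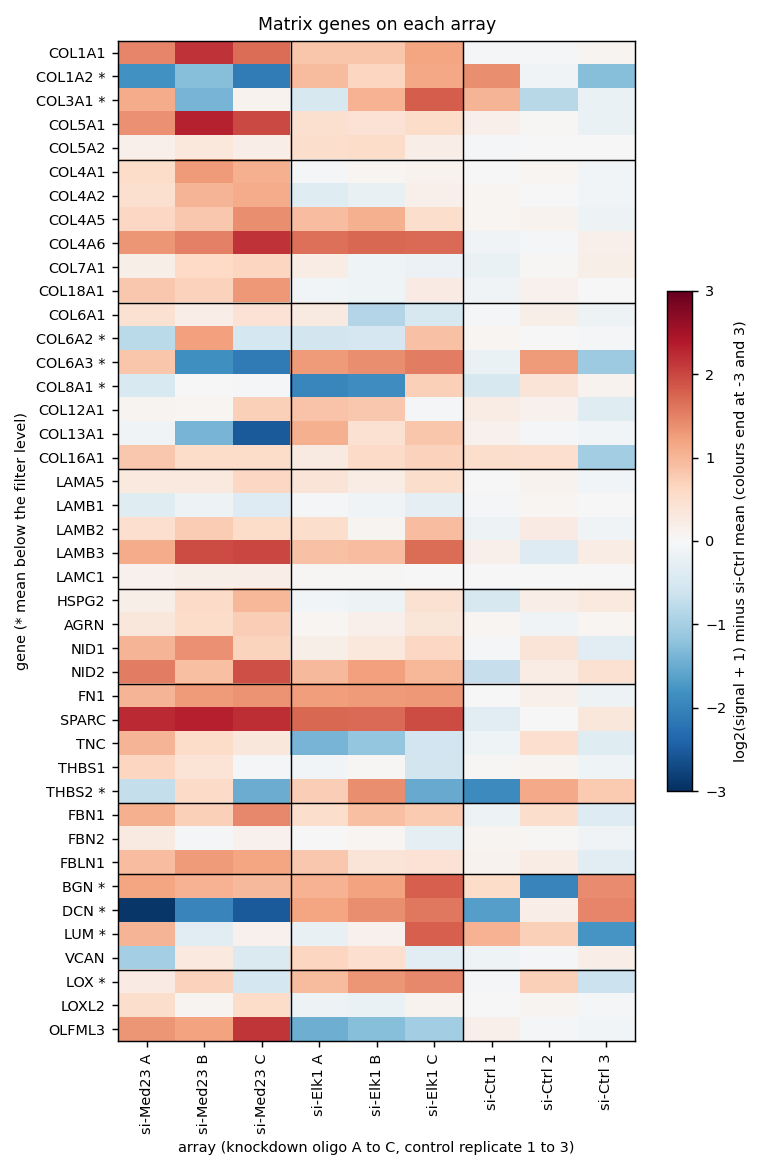
Each column is an array and each line a gene with a probe set, grouped by role in the order of the text, and the colour gives log2(signal + 1) minus the gene's si-Ctrl mean. An asterisk marks the 10 genes whose mean lay below the filter level of 6.05, and these vary widely within groups. Red columns for si-Med23 stand out for the basement membrane collagens, COL1A1, COL5A1, FN1 and SPARC on this scale. COL1A2 and DCN are blue there, and the other collagens are mixed. SPARC, FN1 and COL4A6 are red in both knockdowns.

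The sign of these values depends on how the arrays are scaled. Each deposited array had a trimmed mean signal near 500, and poly-A spike transcripts of bacterial origin averaged a log2 signal of 9.22 ± 0.12 in si-Med23, 8.25 ± 0.29 in si-Elk1 and 7.61 ± 0.20 in si-Ctrl (SD, n = 3 arrays each). Scaling to those spikes moved the median of all genes by -1.61 in si-Med23 against si-Ctrl, -0.64 in si-Elk1 against si-Ctrl and -0.97 between the knockdowns, while scaling to the hybridization controls moved it by -0.50, -0.18 and -0.32. Under the spikes 1 member rose and 21 fell in si-Med23, and 3 rose and 9 fell in si-Elk1. Under the hybridization controls 9 members rose and 3 fell in si-Med23, beside 409 and 5205 of all genes. In si-Elk1 3 rose and 1 fell, beside 166 and 258 of all genes. Such scaling shifts all genes of an array alike, so the members' median stayed 0.54 above that of all genes in si-Med23 and 0.32 above it in si-Elk1. Unless another scaling is named, the fold changes below are on the deposited scale and were tested against no change. The median gene stood at 0.09 in si-Med23 and 0.05 in si-Elk1 on that scale. Median centring moved the median of all genes by 0.23, -0.14 and 0.37 in the same 3 comparisons.

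**Figure D2:**
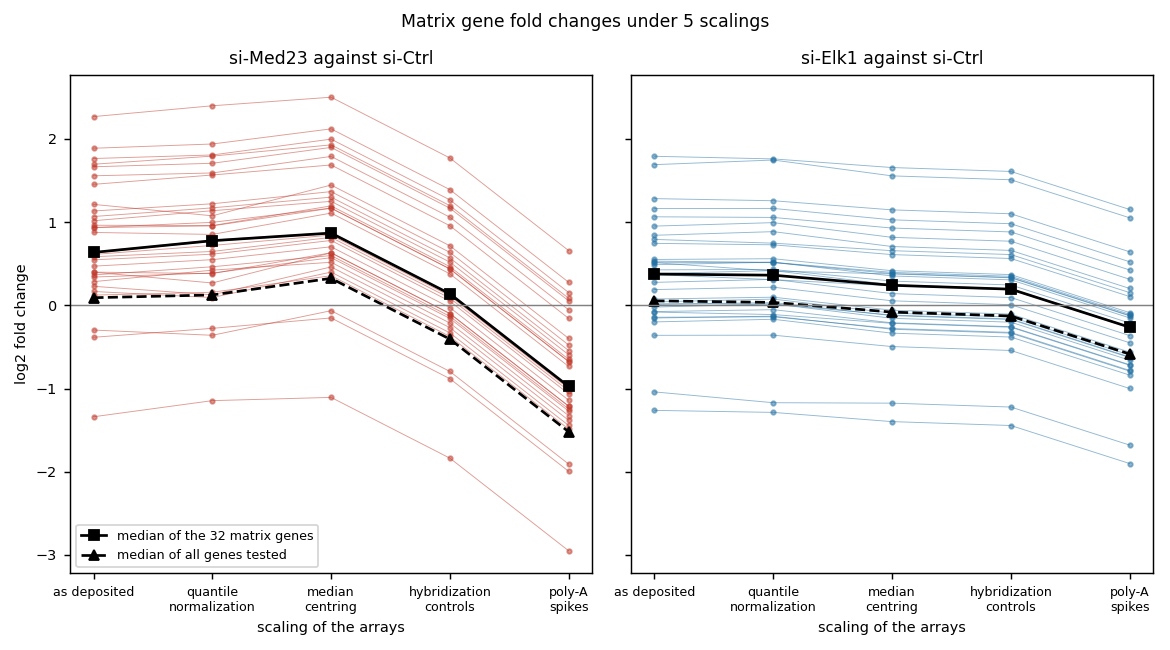
Thin lines follow the log2 fold change of each of the 32 tested matrix genes under 5 array scalings, si-Med23 against si-Ctrl on the left and si-Elk1 against si-Ctrl on the right. Squares give the members' median, positive as deposited (0.64 and 0.38) and negative under the poly-A spikes (-0.98 and -0.26), and triangles give the median of all genes tested, which moves with it.

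The basement membrane collagens were examined next. Type IV collagen is a trimer of chains drawn from COL4A1 to COL4A6, whose genes lie in head-to-head pairs that share a promoter region. The pairs are shown because COL4A6 passed in si-Elk1 against si-Ctrl, while COL4A1 and COL4A2 did not. COL4A5 did not pass there either, and the pairs were not tested against each other. COL4A1 and COL4A2 start on opposite strands with 126 bases between their starts, at chr13:110307158-110307283 (GRCh38.p14, plus strand, from RefSeq). COL4A6 and COL4A5 start with 379 bases between them, and the 250 bases upstream of COL4A6 lie at chrX:108439459-108439708 on the minus strand. Capitals mark matches, on either strand, to a set of promoter motifs: the GC box GGGCGG, the ETS core CCGGAA, the TATA box TATAAA, the CCAAT box CCAAT, the AP-1 site TGANTCA and the CArG box.
COL4A1 and COL4A2: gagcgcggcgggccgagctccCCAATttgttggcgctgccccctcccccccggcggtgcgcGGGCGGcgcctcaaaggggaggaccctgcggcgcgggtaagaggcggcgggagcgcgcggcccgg
COL4A6: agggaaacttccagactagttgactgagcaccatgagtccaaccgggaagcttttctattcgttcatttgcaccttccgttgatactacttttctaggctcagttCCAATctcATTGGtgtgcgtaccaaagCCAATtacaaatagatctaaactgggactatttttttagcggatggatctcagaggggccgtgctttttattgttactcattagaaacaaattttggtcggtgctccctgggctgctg

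The COL4A1 and COL4A2 stretch held 80.2% G and C, with 1 GC box and 1 CCAAT box, which occur in 34.6% and 21.1% of 35116 RefSeq promoter windows of that length. The COL4A6 stretch held 44.0% G and C, with 3 CCAAT boxes and none of the other motifs; a CCAAT box occurs in 32% of windows of 250 bases. A match is only a match of letters. Promoter sequences were matched for 34 of the 44 members.

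Of the 6 basement membrane collagens tested, 5 rose in si-Med23 on the deposited scale, beside 20.3% of all genes. Their median log2 fold change was 0.93, and it was -0.68 under the poly-A spikes and 0.44 under the hybridization controls. In si-Elk1 only COL4A6 passed, beside 4.26% of all genes called, and the median was 0.03 (-0.61 and -0.16 under those scalings). COL4A1, which with COL4A2 forms the type IV collagen of most basement membranes, had log2 signals of 11.26, 11.99 and 11.76 with si-Med23 oligos A, B and C, 10.68, 10.76 and 10.80 with si-Elk1 oligos A, B and C, and 10.72, 10.78 and 10.63 in si-Ctrl replicates 1, 2 and 3. All 3 si-Med23 arrays lay above the other 6, and si-Elk1 overlapped si-Ctrl. Its log2 fold change was 0.96 ± 0.18 in si-Med23 against si-Ctrl (SE, n = 3 arrays per group, limma adjusted p = 0.00519), 0.04 in si-Elk1 against si-Ctrl (95% interval -0.37 to 0.45), and 0.92 ± 0.18 in si-Med23 against si-Elk1 (adjusted p = 0.0132).

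COL4A2 had 11.61, 12.14 and 12.25 in si-Med23, 10.75, 10.89 and 11.27 in si-Elk1 and 11.19, 11.14 and 11.05 in si-Ctrl. Again each si-Med23 array exceeded all arrays of the other groups, with si-Elk1 and si-Ctrl overlapping. COL4A2 rose by 0.88 ± 0.20 in si-Med23 against si-Ctrl (adjusted p = 0.00988), stood at -0.15 in si-Elk1 (95% interval -0.60 to 0.30), and was 1.03 ± 0.20 higher in si-Med23 than in si-Elk1 (adjusted p = 0.0128).

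The second pair had a different order. COL4A6, which with COL4A5 forms the type IV collagen of selected basement membranes, had 10.49, 10.69 and 11.35 in si-Med23, 10.82, 10.90 and 10.89 in si-Elk1 and 9.08, 9.13 and 9.33 in si-Ctrl. Both knockdowns lay above si-Ctrl without overlap and overlapped each other. COL4A6 rose by 1.66 ± 0.21 in si-Med23 (adjusted p = 0.00202) and by 1.69 ± 0.21 in si-Elk1 (adjusted p = 0.00684), with a difference of -0.03 between the knockdowns (95% interval -0.50 to 0.45). COL4A5, mutated in Alport syndrome, had 10.05, 10.24 and 10.83 in si-Med23, 10.37, 10.50 and 9.96 in si-Elk1 and 9.49, 9.54 and 9.28 in si-Ctrl. Its si-Ctrl arrays were the lowest of all 9, and the knockdowns overlapped. COL4A5 rose by 0.94 ± 0.22 in si-Med23 (adjusted p = 0.0123), while 0.84 ± 0.22 in si-Elk1 did not pass (adjusted p = 0.0680), and the knockdowns differed by 0.09 (95% interval -0.42 to 0.60).

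COL18A1, the precursor of the angiogenesis inhibitor endostatin, had 10.98, 10.87 and 11.49 in si-Med23, 10.10, 10.05 and 10.42 in si-Elk1 and 10.07, 10.30 and 10.17 in si-Ctrl. The si-Med23 arrays stood above all others. It rose by 0.93 ± 0.19 in si-Med23 against si-Ctrl (adjusted p = 0.00633), had 0.01 in si-Elk1 (95% interval -0.41 to 0.43), and was 0.92 ± 0.19 higher in si-Med23 than in si-Elk1 (adjusted p = 0.0145). COL7A1, which forms anchoring fibrils beneath basement membranes, had 0.47 ± 0.18 in si-Med23 and -0.02 in si-Elk1, and neither passed (adjusted p = 0.0634 and 0.950). Without si-Elk1 oligo A the si-Med23 against si-Elk1 calls of COL4A1, COL4A2 and COL18A1 were lost (adjusted p = 0.0511, 0.0506 and 0.0551), as was that of COL18A1 without oligo B (0.0546). Under the hybridization control scaling the si-Med23 against si-Ctrl changes of COL4A1, COL4A2, COL4A5 and COL18A1 were 0.46, 0.38, 0.44 and 0.44 and did not pass, nor did COL4A5 averaged over its probe sets (0.99, adjusted p = 0.0865).

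**Figure D3:**
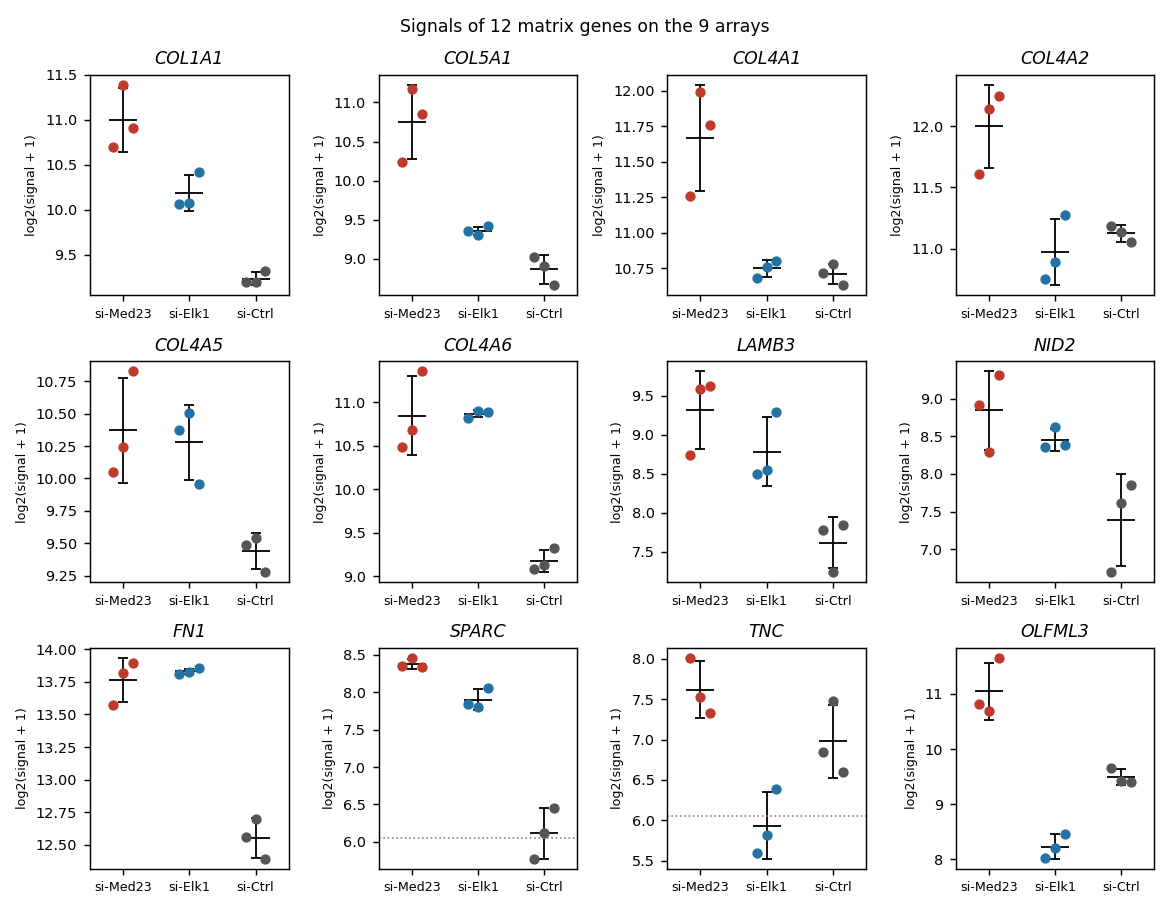
Panels show log2(signal + 1) of 12 matrix genes, with si-Med23 (red), si-Elk1 (blue) and si-Ctrl (grey) from left to right, a point per array, the mean as a horizontal line and bars of ± 1 SD (n = 3). On the deposited scale COL4A1 and COL4A2 are high in si-Med23 alone, COL4A5, COL4A6 and FN1 are high in both knockdowns, and OLFML3 lies above si-Ctrl in si-Med23 and below it in si-Elk1; the dotted line is the filter level of 6.05.

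The laminin chains changed less evenly, from -0.30 to 1.69 in si-Med23 against si-Ctrl, and the other basement membrane proteins follow them. Laminins are trimers of an alpha, a beta and a gamma chain. Of 5 chains tested in si-Med23, LAMB3 and LAMA5 rose and 3 did not pass. The 40% called was close to the 39.8% of all genes. The median was 0.40 on the deposited scale, -0.10 under the hybridization controls and -1.21 under the poly-A spikes. No chain passed by limma in si-Elk1 (3 at an unadjusted p under 0.05) or between the knockdowns (0), beside 4.26% and 21.7% of all genes called. LAMB3, the beta chain of laminin-332 that anchors epithelial cells, had 8.74, 9.58 and 9.62 in si-Med23, 8.50, 8.55 and 9.29 in si-Elk1 and 7.78, 7.24 and 7.84 in si-Ctrl. All knockdown arrays exceeded all si-Ctrl arrays, and the knockdowns overlapped. LAMB3 rose by 1.69 ± 0.31 in si-Med23 (adjusted p = 0.00468), and its 1.16 ± 0.31 in si-Elk1 did not pass (adjusted p = 0.0661).

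LAMA5, an alpha chain found in most adult basement membranes, had 11.54, 11.54 and 11.88 in si-Med23, 11.65, 11.49 and 11.77 in si-Elk1 and 11.24, 11.35 and 11.18 in si-Ctrl. The si-Ctrl arrays were the lowest and the knockdowns overlapped. The difference was small: 0.40 ± 0.14 in si-Med23 (adjusted p = 0.0472) and 0.38 ± 0.14 in si-Elk1 (adjusted p = 0.134). The LAMA5 call was lost without any 1 of 8 of the 9 arrays, si-Elk1 oligo C being the exception (adjusted p up to 0.139), and the change was -0.10 under the hybridization controls. LAMB2 had 0.61 ± 0.22 in si-Med23 (adjusted p = 0.0510) and LAMB1, a widely expressed beta chain, had -0.30 ± 0.12 (adjusted p = 0.0788). LAMC1, the gamma chain of most laminins, had 0.17 ± 0.10 in si-Med23 and 0.02 ± 0.10 in si-Elk1 and passed in neither (adjusted p = 0.199 and 0.924).

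All 4 linking proteins of the basement membrane had positive fold changes in si-Med23 on the deposited scale, and 3 passed, beside 20.3% of all genes higher. Their median was 0.80, and it was 0.30 under the hybridization controls and -0.81 under the poly-A spikes. None passed in si-Elk1 by limma (1 at an unadjusted p under 0.05), beside 4.26% of all genes called. The si-Elk1 median was 0.28 (-0.36 under the spikes). NID1, which bridges laminin and type IV collagen, had 8.22, 8.57 and 7.87 in si-Med23, 7.38, 7.51 and 7.82 in si-Elk1 and 7.14, 7.60 and 6.87 in si-Ctrl. The si-Med23 arrays were the highest of all 9, and si-Elk1 overlapped si-Ctrl. NID1 rose by 1.02 ± 0.24 in si-Med23 (adjusted p = 0.0113). Its paralog NID2 had 8.92, 8.29 and 9.32 in si-Med23, 8.36, 8.62 and 8.38 in si-Elk1 and 6.70, 7.62 and 7.85 in si-Ctrl. Both knockdowns lay above si-Ctrl. NID2 rose by 1.45 ± 0.33 in si-Med23 (adjusted p = 0.0105) and had 1.06 ± 0.33 in si-Elk1, which did not pass (adjusted p = 0.0982).

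AGRN, agrin, a heparan sulfate proteoglycan that binds laminin, had 9.85, 10.06 and 10.26 in si-Med23, 9.57, 9.66 and 9.88 in si-Elk1 and 9.58, 9.40 and 9.56 in si-Ctrl. The si-Med23 arrays lay above si-Ctrl, and oligo A of si-Med23 lay within the range of si-Elk1. AGRN rose by 0.55 ± 0.14 in si-Med23 (adjusted p = 0.0179), a call lost without si-Ctrl replicate 2 (adjusted p = 0.0613) or si-Med23 oligo C (0.0533). HSPG2, perlecan, had 0.58 ± 0.28 in si-Med23 and 0.08 ± 0.28 in si-Elk1, and neither passed (adjusted p = 0.129 and 0.889). Further probe sets of AGRN and NID1, both above the filter level, gave -0.46 and -0.39 in si-Med23 against si-Ctrl, and averaged over all probe sets neither gene passed (0.11 and 0.31, adjusted p = 0.537 and 0.384). Nor did they under the hybridization controls (0.05 and 0.52).

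The fibrillar collagens held some of the larger changes. The promoter of COL5A1 is shown because its change was the largest among the collagens in si-Med23. Its 250 bases upstream of the start lie at chr9:134641553-134641802 on the plus strand (GRCh38.p14, RefSeq), with matches to the motifs above in capitals.
COL5A1: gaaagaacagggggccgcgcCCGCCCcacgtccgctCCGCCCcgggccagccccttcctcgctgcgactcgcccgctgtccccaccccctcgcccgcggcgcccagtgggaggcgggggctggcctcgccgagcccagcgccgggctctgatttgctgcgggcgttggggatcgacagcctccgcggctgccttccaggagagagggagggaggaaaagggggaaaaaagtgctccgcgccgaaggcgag

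The stretch held 2 GC boxes, a motif found in 42.6% of windows of 250 bases, and no match to the other motifs. COL5A1, a chain of type V collagen that regulates fibre diameter, had 10.24, 11.17 and 10.85 in si-Med23, 9.35, 9.30 and 9.41 in si-Elk1 and 9.03, 8.91 and 8.66 in si-Ctrl. The si-Med23 arrays were far above the rest, and the si-Elk1 arrays lay just above si-Ctrl. COL5A1 rose by 1.89 ± 0.22 in si-Med23, a 3.70-fold level (adjusted p = 0.00184), had 0.49 ± 0.22 in si-Elk1 (adjusted p = 0.213), and was 1.40 ± 0.22 higher in si-Med23 than in si-Elk1 (adjusted p = 0.00775). A pair of further COL5A1 probe sets gave 1.66 and 1.46 in si-Med23 against si-Ctrl.

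COL1A1, the main chain of type I collagen, had 10.70, 11.39 and 10.91 in si-Med23, 10.06, 10.08 and 10.42 in si-Elk1 and 9.20, 9.20 and 9.32 in si-Ctrl. The groups did not overlap, with si-Med23 highest and si-Ctrl lowest. It rose by 1.76 ± 0.19 in si-Med23 (adjusted p = 0.00184) and by 0.95 ± 0.19 in si-Elk1 (adjusted p = 0.0318), and was 0.81 ± 0.19 higher in si-Med23 than in si-Elk1 (adjusted p = 0.0219). The si-Elk1 call was lost without any 1 of the 6 arrays compared (adjusted p = 0.0609 to 0.0951), and the call between the knockdowns without si-Elk1 oligo A or B (0.0777 and 0.0749). The COL1A1 probe sets disagreed, since another above the filter level gave -0.06 in si-Med23 against si-Ctrl, and averaged over all of them COL1A1 had 0.67 (adjusted p = 0.288). Under the hybridization controls its si-Elk1 change of 0.77 and its difference between the knockdowns of 0.50 did not pass.

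COL5A2, which pairs with COL5A1, had 0.23 ± 0.13 in si-Med23 and 0.43 ± 0.13 in si-Elk1 and passed in neither (adjusted p = 0.183 and 0.0902). The median of the 3 fibrillar collagens tested was 1.76 in si-Med23 and 0.49 in si-Elk1 on the deposited scale, and 0.15 and -0.15 under the poly-A spikes. COL1A2, the partner chain of COL1A1, lay below the filter level.

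Of the other collagens none of the 4 tested passed against si-Ctrl by limma (1 in si-Med23 and 0 in si-Elk1 at an unadjusted p under 0.05). Of all genes 39.8% and 4.26% were called there. The medians were 0.32 in si-Med23 and 0.52 in si-Elk1 on the deposited scale, and -1.29 and -0.12 under the poly-A spikes. COL13A1, a transmembrane collagen at cell adhesion sites, had 6.98, 5.69 and 4.58 in si-Med23, 8.16, 7.56 and 7.93 in si-Elk1 and 7.22, 7.03 and 7.02 in si-Ctrl. The si-Med23 arrays were the lowest and spread widely, with oligos B and C below the filter level, and the si-Elk1 arrays were the highest. COL13A1 was lower in si-Med23 than in si-Elk1 by a log2 difference of -2.13 ± 0.50 (adjusted p = 0.0222), while -1.34 ± 0.50 in si-Med23 and 0.79 ± 0.50 in si-Elk1 against si-Ctrl did not pass (adjusted p = 0.0600 and 0.340). The call was lost without si-Med23 oligo B (adjusted p = 0.0608), si-Elk1 oligo A (0.0767) or si-Elk1 oligo B (0.0550), and with no filter on low signals (0.0623).

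COL6A1, a chain of the microfibrillar type VI collagen, had 0.36 ± 0.26 in si-Med23 and -0.36 ± 0.26 in si-Elk1. COL12A1, a collagen found along the surface of type I fibres, had 0.28 ± 0.29 in si-Med23 and 0.53 ± 0.29 in si-Elk1. COL16A1 had 0.63 ± 0.38 in si-Med23 and 0.51 ± 0.38 in si-Elk1, with si-Ctrl replicate 3 below the filter level. The adjusted p-values of these genes against si-Ctrl ran from 0.214 to 0.461.

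**Figure D4:**
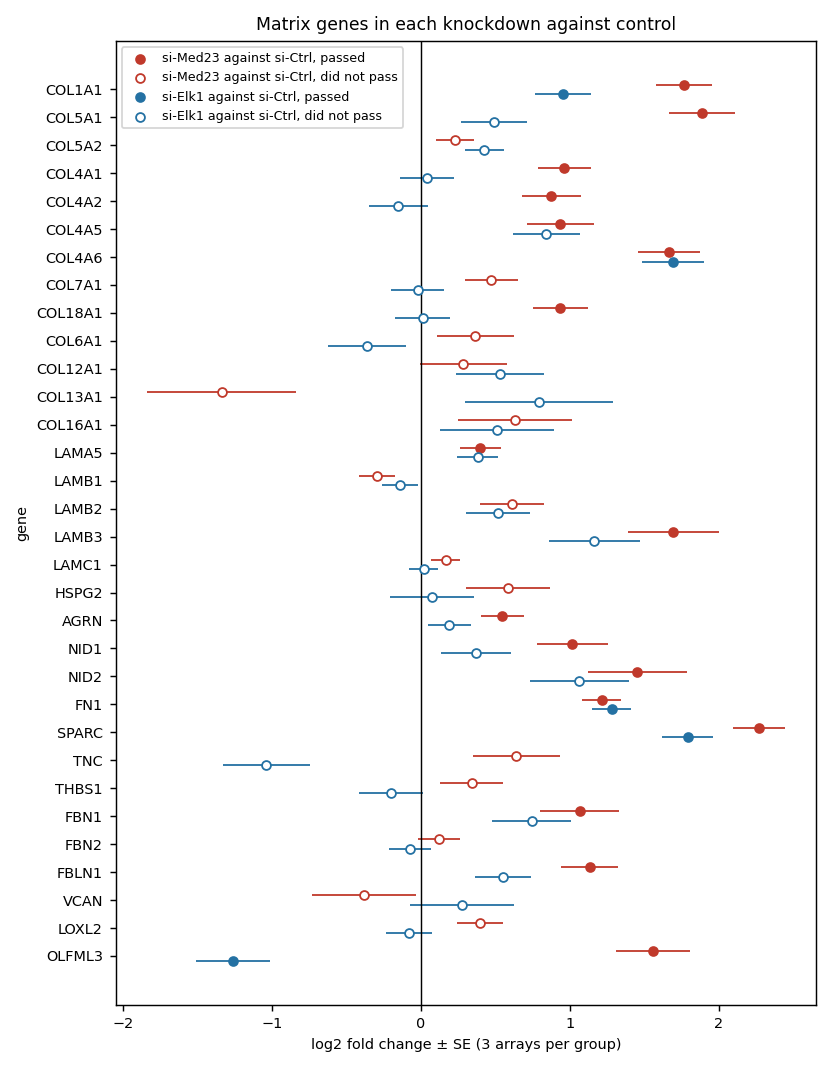
Points give the log2 fold change of the 32 tested matrix genes against si-Ctrl, si-Med23 in red above si-Elk1 in blue, with bars of ± 1 SE and filled points for changes that passed. On the deposited scale 17 si-Med23 points are filled, all right of 0, and 5 si-Elk1 points, of which OLFML3 lies left of 0; under the poly-A spikes 1 member rose and 21 fell in si-Med23.

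Among the adhesive and matricellular glycoproteins, fibronectin and SPARC rose in both knockdowns. Their promoters are shown because these were the members with the smallest p-values in si-Elk1. The 250 bases upstream of FN1 lie at chr2:215436069-215436318 and those upstream of SPARC at chr5:151686916-151687165, both on the minus strand (GRCh38.p14, RefSeq), with motif matches in capitals.
FN1: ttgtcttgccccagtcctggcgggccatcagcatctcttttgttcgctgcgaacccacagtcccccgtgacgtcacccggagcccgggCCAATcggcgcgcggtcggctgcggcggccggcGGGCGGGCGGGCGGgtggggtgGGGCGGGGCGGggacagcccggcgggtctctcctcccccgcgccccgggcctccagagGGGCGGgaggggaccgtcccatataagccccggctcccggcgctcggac
SPARC: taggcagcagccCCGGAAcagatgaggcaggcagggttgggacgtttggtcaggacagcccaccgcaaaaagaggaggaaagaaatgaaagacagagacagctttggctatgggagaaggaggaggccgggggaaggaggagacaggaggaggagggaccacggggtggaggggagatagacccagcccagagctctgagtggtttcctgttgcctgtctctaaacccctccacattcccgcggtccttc

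The FN1 stretch held 6 GC box matches, some of which overlap and share bases, and 1 CCAAT box. The SPARC stretch held 1 ETS core, a motif of 14.5% of windows of 250 bases, and no match to the other motifs. FN1, fibronectin, the ligand of several integrins, had 13.57, 13.82 and 13.89 in si-Med23, 13.81, 13.82 and 13.85 in si-Elk1 and 12.56, 12.70 and 12.39 in si-Ctrl. All 6 knockdown arrays lay well above the highest si-Ctrl array, and the knockdowns overlapped. FN1 rose by 1.21 ± 0.13 in si-Med23 (adjusted p = 0.00184) and by 1.28 ± 0.13 in si-Elk1 (adjusted p = 0.00355), with a difference of -0.07 between them (95% interval -0.37 to 0.23). Under the poly-A spikes the FN1 change was -0.40 in si-Med23 and 0.64 in si-Elk1.

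SPARC, a collagen-binding glycoprotein that modulates cell contact with the matrix, had 8.35, 8.46 and 8.34 in si-Med23, 7.84, 7.81 and 8.06 in si-Elk1 and 5.77, 6.12 and 6.45 in si-Ctrl. The 3 groups did not overlap, with si-Med23 highest, and si-Ctrl replicate 1 lay below the filter level. SPARC rose by 2.27 ± 0.17 in si-Med23, a 4.82-fold level (adjusted p = 0.00184), and by 1.79 ± 0.17 in si-Elk1, a 3.46-fold level (adjusted p = 0.00318). The difference between the knockdowns, 0.48 ± 0.17, did not pass (adjusted p = 0.0787). It was the 1 member that rose in si-Med23 under the poly-A spikes too (0.66, adjusted p = 0.0143), and it had 1.15 in si-Elk1 there (adjusted p = 0.0176).

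TNC, tenascin-C, a glycoprotein of wounds and tumour stroma, had 8.01, 7.52 and 7.33 in si-Med23, 5.59, 5.82 and 6.39 in si-Elk1 and 6.85, 7.48 and 6.60 in si-Ctrl. The si-Elk1 arrays were the lowest, with oligos A and B below the filter level, and si-Med23 overlapped si-Ctrl. TNC was 1.68 ± 0.29 higher in si-Med23 than in si-Elk1 (adjusted p = 0.0101), while 0.64 ± 0.29 in si-Med23 and -1.04 ± 0.29 in si-Elk1 against si-Ctrl did not pass (adjusted p = 0.110 and 0.0782). THBS1, thrombospondin-1, an activator of latent TGF-beta, had 0.34 ± 0.21 in si-Med23 and -0.20 ± 0.21 in si-Elk1 (adjusted p = 0.231 and 0.576).

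Of the 3 elastic fibre proteins, FBN1 and FBLN1 rose in si-Med23 on the deposited scale, beside 20.3% of all genes. None passed in si-Elk1 by limma (2 at an unadjusted p under 0.05), beside 4.26% of all genes called. The medians were 1.07 in si-Med23 and 0.55 in si-Elk1, and -0.54 and -0.09 under the poly-A spikes. FBLN1, fibulin-1, had 9.14, 9.50 and 9.41 in si-Med23, 9.03, 8.61 and 8.66 in si-Elk1 and 8.33, 8.45 and 7.87 in si-Ctrl. Each si-Med23 array lay above all others. FBLN1 rose by 1.13 ± 0.19 in si-Med23 (adjusted p = 0.00373), and 0.55 ± 0.19 in si-Elk1 did not pass (adjusted p = 0.124). Among further FBLN1 probe sets above the filter level 1 gave -0.70 in si-Med23 against si-Ctrl, and the mean of all was 0.22 (adjusted p = 0.313).

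FBN1, fibrillin-1, the core of elastic microfibrils, had 8.76, 8.40 and 9.12 in si-Med23, 8.22, 8.60 and 8.49 in si-Elk1 and 7.55, 8.22 and 7.30 in si-Ctrl. The si-Med23 arrays exceeded si-Ctrl, while si-Elk1 oligo A lay level with si-Ctrl replicate 2. FBN1 rose by 1.07 ± 0.27 in si-Med23 (adjusted p = 0.0142), a call lost without si-Ctrl replicate 3 (adjusted p = 0.0519), under the hybridization controls (0.57) and when its probe sets were averaged (0.54, adjusted p = 0.194). It had 0.74 ± 0.27 in si-Elk1 (adjusted p = 0.131). FBN2 had 0.12 ± 0.14 in si-Med23 and -0.08 ± 0.14 in si-Elk1, and neither passed (adjusted p = 0.511 and 0.765).

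OLFML3, a secreted olfactomedin-domain glycoprotein, was the member that differed most between the knockdowns. Its promoter is shown for that reason, the 250 bases upstream of the start at chr1:113979224-113979473 on the plus strand (GRCh38.p14, RefSeq), with the motif match in capitals.
OLFML3: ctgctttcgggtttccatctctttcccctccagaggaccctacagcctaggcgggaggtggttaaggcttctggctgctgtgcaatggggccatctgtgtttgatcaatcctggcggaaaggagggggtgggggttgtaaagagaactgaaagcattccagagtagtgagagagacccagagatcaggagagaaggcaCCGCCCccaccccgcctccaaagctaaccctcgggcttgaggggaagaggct

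The stretch held 1 GC box, read on the opposite strand. OLFML3 had 10.81, 10.69 and 11.65 in si-Med23, 8.02, 8.21 and 8.46 in si-Elk1 and 9.65, 9.43 and 9.40 in si-Ctrl. The 3 groups did not overlap, with si-Med23 above si-Ctrl and si-Elk1 below it. OLFML3 rose by 1.56 ± 0.25 in si-Med23 (adjusted p = 0.00312), fell by 1.26 ± 0.25 in si-Elk1 (adjusted p = 0.0304), and was 2.82 ± 0.25 higher in si-Med23 than in si-Elk1, a 7.06-fold level (adjusted p = 0.00175). The si-Elk1 call was lost without any 1 of the 6 arrays compared (adjusted p = 0.0579 to 0.0951). Under the poly-A spikes OLFML3 had -0.05 in si-Med23 and -1.90 in si-Elk1 against si-Ctrl.

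LOXL2, a lysyl oxidase that crosslinks collagen, had 0.40 ± 0.16 in si-Med23 and -0.08 ± 0.16 in si-Elk1, and VCAN, the large proteoglycan versican, had -0.38 ± 0.35 in si-Med23 and 0.28 ± 0.35 in si-Elk1. Neither gene passed in any comparison (adjusted p from 0.0572 to 0.769 over both genes).

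The 10 members below the filter level were COL1A2, COL3A1, COL6A2, COL6A3, COL8A1, THBS2, BGN, DCN, LUM and LOX. Several encode products typical of fibroblasts, such as the fibrillar chains COL1A2 and COL3A1, the small proteoglycans decorin (DCN), lumican (LUM) and biglycan (BGN), and the crosslinking enzyme LOX. COL3A1, COL8A1 and THBS2 lay below the level on all 9 arrays, and their replicates varied by up to 1.66 (SD). COL6A2, COL6A3, BGN, LUM and LOX lay below it on 6 to 8 of the 9 arrays. LOX had 5.21, 5.65 and 4.43 in si-Med23, 5.91, 6.29 and 6.41 in si-Elk1 and 4.89, 5.68 and 4.31 in si-Ctrl. Its si-Elk1 arrays were the highest, without overlap, but fitted with no filter the log2 fold change of 1.24 in si-Elk1 against si-Ctrl did not pass (adjusted p = 0.210). DCN had 3.07, 4.0 and 3.46 in si-Med23, 7.16, 7.39 and 7.57 in si-Elk1 and 4.34, 6.17 and 7.45 in si-Ctrl. The si-Med23 arrays were below the level and the lowest of all, those of si-Elk1 were above the level, and si-Ctrl spread across it and overlapped si-Elk1. COL1A2 had 3.34, 3.88 and 3.05 in si-Med23, 6.09, 5.79 and 6.30 in si-Elk1 and 6.53, 5.04 and 3.87 in si-Ctrl, so its si-Med23 arrays were lowest on average, with oligo B level with si-Ctrl replicate 3. Fitted with no filter, DCN was lower in si-Med23 than in si-Ctrl (log2 fold change -2.48, adjusted p = 0.0479; 9.85% of all genes lower there) and than in si-Elk1 (-3.86, adjusted p = 0.0348; 2.85% of all genes lower there), with sizes that are uncertain at such dim signals. In si-Elk1 against si-Ctrl the members called with no filter were COL4A6, FN1 and SPARC, 3 in all beside 0.602% of all genes. COL1A2 passed neither si-Med23 test (-1.73 against si-Ctrl, adjusted p = 0.0895, and -2.64 against si-Elk1, adjusted p = 0.0533).

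**Figure D5:**
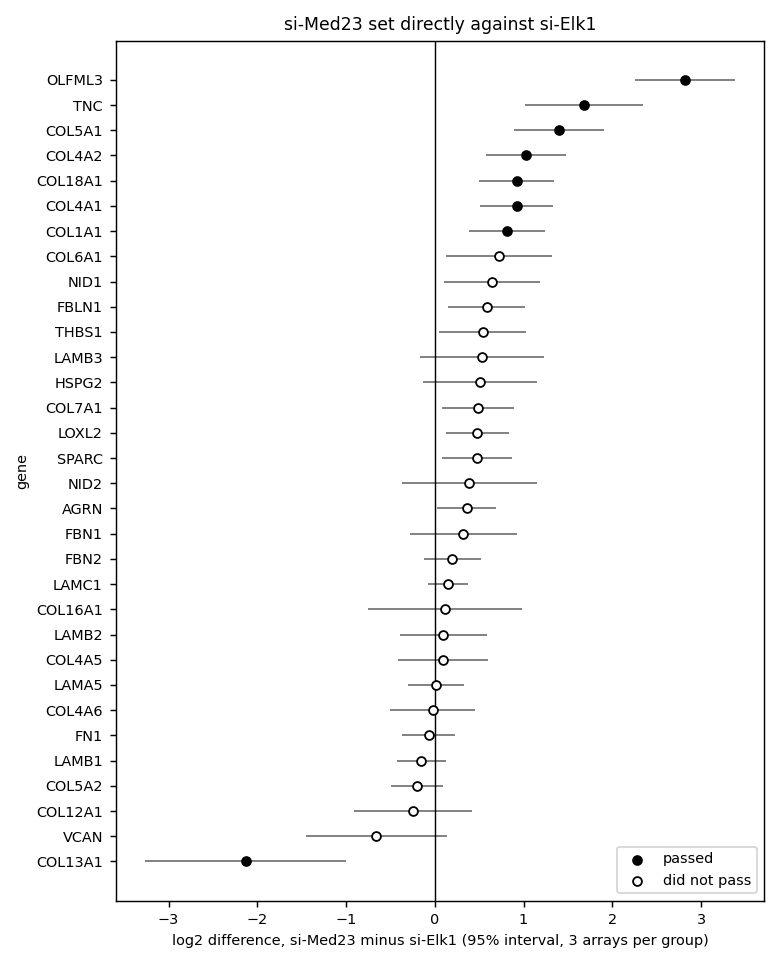
Points give the log2 difference of si-Med23 minus si-Elk1 for the 32 tested matrix genes, sorted by size, with 95% intervals and filled points for differences that passed. OLFML3 (2.82) and TNC (1.68) head the 7 higher in si-Med23 and COL13A1 (-2.13) is the 1 lower, on the deposited scale; under the poly-A spikes 2 members were higher and 13 lower.

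Other genes of the matrix were read from the same fit. Of 52 further structural matrix genes 26 were tested, and in si-Med23 against si-Ctrl 2 rose, TGFBI and SMOC1, and 0 fell (0 at an unadjusted p under 0.05), with a median of 0.15. That is 7.69% of them, below the 39.8% of all genes called, and the other 24 did not pass. In si-Elk1, SMOC1 rose and CCN2 fell (7.69%, beside 4.26% of all genes), with a median of 0.26. Against si-Elk1, CCN1, CCN2 and EFEMP1 were higher and MATN3 lower in si-Med23 (15.4%, beside 21.7% of all genes). TGFBI, a collagen-binding protein induced by TGF-beta, rose by 0.58 ± 0.13 in si-Med23 (adjusted p = 0.0113). SMOC1, a calcium-binding basement membrane protein, had 2.29 ± 0.56 in si-Med23 and 2.76 ± 0.56 in si-Elk1 (adjusted p = 0.0133 and 0.0348). Its si-Ctrl arrays, at 5.98, 7.87 and 5.61, spread widely and 2 of 3 lay below the filter level, so the size of these changes is uncertain. CCN2, connective tissue growth factor, had 10.87, 11.16 and 10.86 in si-Med23, 10.16, 10.03 and 10.21 in si-Elk1 and 10.88, 10.88 and 10.65 in si-Ctrl. It was lowest in si-Elk1, without overlap, and differed by 0.83 ± 0.13 between si-Med23 and si-Elk1 (adjusted p = 0.00775). The differences between the knockdowns were 0.96 ± 0.24 for CCN1, 0.84 ± 0.25 for EFEMP1 and -0.82 ± 0.25 for MATN3 (adjusted p = 0.0261, 0.0441 and 0.0485). Under the poly-A spikes TGFBI had -1.03 in si-Med23 against si-Ctrl, and the differences between the knockdowns were -0.15 for CCN2, -0.01 for CCN1 and -0.13 for EFEMP1.

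The enzymes and chaperones that make collagen were a separate list of 30, of which 24 were tested. In si-Med23 against si-Ctrl 7 rose and 2 fell, with a median of 0.34, and the 37.5% called was close to the 39.8% of all genes. In si-Elk1 against si-Ctrl 3 rose and 0 fell (2 at an unadjusted p under 0.05), with a median of 0.25, which is 12.5% called beside 4.26% of all genes. In si-Med23 against si-Elk1 2 were higher and 4 lower, which is 25% beside 21.7%. SERPINH1, the collagen chaperone HSP47, had 11.15, 11.30 and 11.15 in si-Med23, 10.14, 9.60 and 10.10 in si-Elk1 and 9.91, 9.83 and 9.83 in si-Ctrl. Its si-Med23 arrays stood above the other 6, which overlapped. SERPINH1 rose by 1.34 ± 0.16 in si-Med23 (adjusted p = 0.00184) and was 1.25 ± 0.16 higher than in si-Elk1 (adjusted p = 0.00496). PPIB, a prolyl isomerase of collagen folding, rose by 0.81 ± 0.12 in si-Med23 (adjusted p = 0.00264), and P3H1, a collagen prolyl 3-hydroxylase, by 0.57 ± 0.13 (adjusted p = 0.00960). PLOD2, a lysyl hydroxylase, and FKBP14, a further isomerase, fell by 0.84 ± 0.23 and 0.86 ± 0.25 in si-Med23 (adjusted p = 0.0201 and 0.0263). TGM2, a transglutaminase that crosslinks matrix proteins, rose by 0.66 ± 0.17 in si-Med23 and by 1.38 ± 0.17 in si-Elk1 (adjusted p = 0.0186 and 0.00762). The prolyl 4-hydroxylase subunits P4HA2 and P4HA3 rose by 0.67 ± 0.13 and 1.28 ± 0.29 in si-Elk1 (adjusted p = 0.0335 and 0.0454), and P3H2 was among the 4 lower in si-Med23 than in si-Elk1, by a log2 difference of -0.53 ± 0.12 (adjusted p = 0.0206). Under the poly-A spikes SERPINH1, PPIB, P3H1 and TGM2 had -0.27, -0.80, -1.04 and -0.96 in si-Med23 against si-Ctrl.

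Of 15 matrix receptors other than integrins 10 were tested, and 20% of the 10 were called in si-Med23 against si-Ctrl and 20% between the knockdowns, beside 39.8% and 21.7% of all genes. The syndecan SDC3 rose by 2.46 ± 0.61 and the hyaluronan receptor HMMR fell by 1.60 ± 0.27 in si-Med23 (adjusted p = 0.0138 and 0.00355). In si-Elk1 0 of 10 passed by limma (4 at an unadjusted p under 0.05), beside 4.26% of all genes called. SDC3 had 6.98, 4.68 and 4.72 in si-Ctrl, with 2 of 3 arrays and the group mean below the filter level, so the size of its rise is uncertain. Between the knockdowns CD47, a receptor of thrombospondin, was higher in si-Med23 (0.41 ± 0.12, adjusted p = 0.0451) and the syndecan SDC1 lower (-0.54 ± 0.14, adjusted p = 0.0277). Under the poly-A spikes SDC3 (0.85, adjusted p = 0.223) did not pass, HMMR (-3.21) and SDC1 (-1.52) were lower still, and the CD47 difference was -0.57 (adjusted p = 0.0515). The CD47 call was also lost under quantile normalization (0.29) and the hybridization controls (0.09), and the SDC1 call under median centring (-0.18).

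Where a called member had further probe sets above the filter level, most moved the same way. In si-Med23 against si-Ctrl 11 of the 17 members had such probe sets, 20 in all, and 16 shared the direction, the other 4 being those of COL1A1, AGRN, NID1 and FBLN1 given above. In si-Elk1 against si-Ctrl 8 of 8 shared it, and between the knockdowns 6 of 7 did, with COL1A1 the exception.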

How the data were processed

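The authors deposited linear intensities for 54675 probe sets on each of 9 arrays. Per the submitters' processing notes RMA and MAS5 were used, with no role or version. On each deposited array the 2% trimmed mean was near 500, which removes any change in total messenger RNA. Genome build and detection calls are not given in the sources used here.

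Signals were analysed as log2(signal + 1). Of the probe sets 41091 had exactly 1 gene in the platform annotation, 1801 had several and 11777 were unnamed here. Genes dimmer on average than the median probe set (log2 6.05, signal 65.4) were left out, which left 12616 of 19775. All 9 arrays entered 1 limma fit (limma 3.58.1, R 4.3.3, lmFit and eBayes, two-sided) with no block, and the Benjamini-Hochberg adjustment ran over all genes tested, threshold 0.05. The fit was tested on simulated data. Tables and figures used Python 3.11.15, pandas 2.3.3 and matplotlib 3.10.9. Promoters came from RefSeq (GRCh38.p14).

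The members, lists, tests and alternatives were chosen with earlier results of these data known. Members that passed in a comparison without overlap between its groups were given in full, others by fold change or level, and related lists by up to 3 genes with the smallest p, with PLOD2, FKBP14 and MATN3 of those lists added after their values were seen. Replicate numbers did not pair the samples (correlations of same-numbered deviations -0.18 to 0.05). No 2 arrays were identical. Alternatives covered the filter, pseudocount, probe set choice, array scaling, block, prior and each array left out.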

Additional observations from a re-analysis of the deposited data

Results flagged for a closer look

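For 8 matrix genes the effects of the knockdowns differed by a direct limma test of si-Med23 against si-Elk1. They are 25% of the 32 members tested, close to the 21.7% of all genes called. The log2 difference, si-Med23 minus si-Elk1, was 2.82 for OLFML3, 1.68 for TNC, 1.40 for COL5A1, 1.03 for COL4A2, 0.92 for COL18A1, 0.92 for COL4A1, 0.81 for COL1A1 and -2.13 for COL13A1. The arrays of the knockdowns did not overlap for any of the 8. Among the 32 members 12 did not overlap, beside 38% of all genes. The calls of COL1A1, COL4A1, COL4A2, COL18A1 and COL13A1 were lost when some single arrays were left out. Only OLFML3 among the 8 had changes of opposite sign against si-Ctrl that both passed. TNC rested on si-Elk1 arrays of which 2 of 3 lay below the filter level, and COL13A1 on si-Med23 arrays of which 2 of 3 did.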

How the results depend on the processing

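Array scaling mattered most. Under the poly-A spikes 1 member rose and 21 fell in si-Med23 against si-Ctrl, 12 were called in si-Elk1 with 9 lower, and 15 between the knockdowns with 2 higher and 13 lower. In si-Med23 the changes reversed to -0.65 for COL4A1, -0.74 for COL4A2, -0.68 for COL4A5, -0.68 for COL18A1, -1.21 for LAMA5, -1.06 for AGRN, -0.59 for NID1, -0.16 for NID2, -0.40 for FN1, -0.54 for FBN1, -0.48 for FBLN1 and -0.054 for OLFML3, and between the knockdowns to -0.16 for COL1A1, -0.050 for COL4A1 and -0.049 for COL18A1. Under the hybridization controls 9 rose and 3 fell in si-Med23, with LAMA5 at -0.10, beside 409 and 5205 of all genes. Between the knockdowns 4 were lower, beside 3943 of all genes. Median centring called 21 between the knockdowns, 20 of them higher, and quantile normalization 1 lower in si-Med23. The cause of the unequal spikes was not tested.

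With the mean of all probe sets 10 members were called in si-Med23, all 10 higher, and 5 between the knockdowns, 0 lower. Without probe sets ending in _x_at or _s_at only 20 members were tested; 10 were called in si-Med23 (9 higher, 1 lower, AGRN at -0.46), 2 in si-Elk1 (1 higher) and 5 between the knockdowns (0 lower). With no filter 1 fell in si-Med23 (9.85% of all genes lower), and 3 were called and 0 fell in si-Elk1 (0.602% of all genes called). A stricter filter, and a fit of only the 6 arrays compared, left 0 lower between the knockdowns. Raising signals to the filter level gave 1 lower in si-Med23. A trended and robust prior gave 2 lower in si-Med23 and 8 called, 7 higher, in si-Elk1.

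With the replicate number as a block 1 member fell in si-Med23, and 3 were called and 0 fell in si-Elk1, where COL1A1 and OLFML3 no longer passed (adjusted p = 0.0702 and 0.0583); the numbers did not pair the samples.

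With 1 array left out, 15 to 19 members were called in si-Med23 against si-Ctrl (15 to 18 higher, 0 to 1 lower), 3 to 6 in si-Elk1 against si-Ctrl (3 to 5 higher, 0 to 1 lower) and 4 to 11 in si-Med23 against si-Elk1 (4 to 9 higher, 0 to 2 lower). The count for si-Elk1 fell to 3 without any 1 si-Ctrl replicate or si-Elk1 oligo A or B, and that between the knockdowns to 4 and 5 without si-Elk1 oligo A and B. For the other alternatives of this section, left-out arrays included, no share of all genes called stands beside the counts. Such counts show how far the calls held, and do not compare the members with all genes.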
